A study of Mus musculus with 12 samples.

Results

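The genes described are 34 genes of glycolysis and glycogen metabolism in the mouse heart. They comprise glucose and lactate transporters, the enzymes of each step from glucose to lactate, and the enzymes that build or break down glycogen. Rows were taken by an exact match of the gene symbol. All 34 symbols were found, in 35 of the 56748 rows of the table, because a shorter gene model also carries the symbol Aldoa. All 35 rows passed the filter on low values, which asked for an FPKM (fragments per kilobase per megaread) of 1 or more in any 3 of 12 libraries.

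RNA from whole hearts was sequenced in 4 groups of 3 libraries: hearts of wild type mice at postnatal days 1 (P1) and 21 (P21), and hearts of Csrp3 knockout mice at those ages. Csrp3 encodes muscle LIM protein of the sarcomere. No treatment, strain, sex or knockout allele is stated in the labels, nor are separate animals named for the libraries of a group. The spread behind each p-value is thus that of these samples, and part of it may be technical. Whole heart holds several cell types, so fewer cells of a type and less RNA per cell cannot be told apart in any difference given.

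Glycolysis splits glucose into pyruvate, with a small gain of ATP that needs no oxygen, and lactate dehydrogenase interconverts pyruvate and lactate. Most steps are served by several isoenzymes encoded by separate genes, some expressed in many tissues and others enriched in striated muscle. The fetal heart relies largely on glucose and lactate, and the heart turns mainly to fatty acid oxidation after birth. Glycogen is a store of glucose inside the muscle cell, released by glycogen phosphorylase under the control of phosphorylase kinase.

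Each library held 9.67 to 15.9 megareads in genes. The deposited FPKM include a scaling factor of 1.14 to 1.17 at P1 and 0.605 to 0.944 at P21, so age differences depend on that scale. Wild-type P21 libraries 1 and 2 stood apart from the rest, with 17344 and 15811 genes above 0, the lowest numbers of all, and library names that end in R. Csrp3 RNA was present in all libraries labelled knockout, at 168, 94.3 and 147 FPKM at P1 and 671, 1112 and 926 at P21, against 183, 179 and 238 and 1068, 1397 and 572 in wild type. The genotype is therefore given as labelled. Summed heart muscle markers were 9401 to 13880 FPKM at P1 and 22156 to 38166 at P21, with all 8 markers found. In the averaged age comparison given below, 5 of the 8 were higher and 0 lower, where 24.9% of all genes tested were higher. Actc1, Myh6 and Ryr2 overlapped between the ages, with Ryr2 at 26.5 to 47.0 FPKM at P1 and 19.0 to 36.5 at P21. Summed red cell markers (7 of 8 found) were 1663 to 4424 FPKM at P1 and 7088 to 42942 at P21, highest in wild-type P21 library 2. Summed proliferation markers were 17.1 to 81.7 FPKM at P1 and 0.657 to 2.68 at P21. Skeletal muscle markers summed to 1.12 to 7.02 FPKM, highest in wild-type P21 library 2. Among them Myh1, Myh4 and Myog were listed at 0 in every P21 library. Tnni2 ranged from 0.938 to 1.57 FPKM at P1, and stood at 2.93, 6.74 and 1.55 in wild type and 1.08, 0.885 and 2.04 in labelled knockout at P21. The part of these markers in the age differences was not tested.

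Between P1 and P21 several isoforms of striated muscle rose and several other isoforms fell. Slc2a4, Aldoa, Pgam2, Eno3, Ldhb, Pfkfb2, Phkg1 and, at very low values, Gapdh rose, and Slc2a1, Slc16a3, Aldoc, Pgam1 and the short Aldoa model fell. Averaged over genotypes, those 13 rows passed in every alternative that tested them. Gapdh, Phkg1, Slc2a1, Slc16a3, Aldoc and the short Aldoa model, with a mean FPKM under 5, were outside the alternative with that filter. The rescalings described below lowered the age differences, so they were no check on the 5 rows that fell. In all, 17 of 35 rows were higher at P21 and 5 lower, or 62.9%, where 52.4% of all 13537 genes tested passed (24.9% higher and 27.5% lower). The share that passed was thus not far above the background, while the direction leaned to higher values. The median difference of the 35 rows was 0.44 on the log2(FPKM + 0.5) scale, against -0.02 for all genes tested. Groups of all P21 and all P1 libraries did not overlap for 16 rows, 13 higher and 3 lower, against 31.6% of all genes (14.6% higher and 16.9% lower). Without wild-type P21 libraries 1 and 2, 16 rows were higher and 5 lower. The test was limma on log2(FPKM + 0.5), with Benjamini-Hochberg adjustment over all genes and a threshold of 0.05.

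The scale of the libraries decides the sign for part of the genes. Rescaling each library to TPM (transcripts scaled to a fixed total per library) moved the median of all genes to -0.82 and that of the 35 rows to -0.28, with 8 rows higher and 16 lower. Rescaling without mitochondrially encoded genes and the 20 most abundant genes gave -0.68 and -0.13, with 9 higher and 11 lower. Relative to all genes, the median of the 35 rows stayed 0.37 to 0.60 higher at P21 over 23 alternatives, and was 0.46 higher as deposited. Pkm, Slc16a1 and Phka1, higher as deposited, turned to negative values on both rescalings. Pfkm, Hk2, Pygm, Pfkp, Pfkfb3 and Ldha stayed positive in every alternative and did not pass in all of them.

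**Figure D1:**
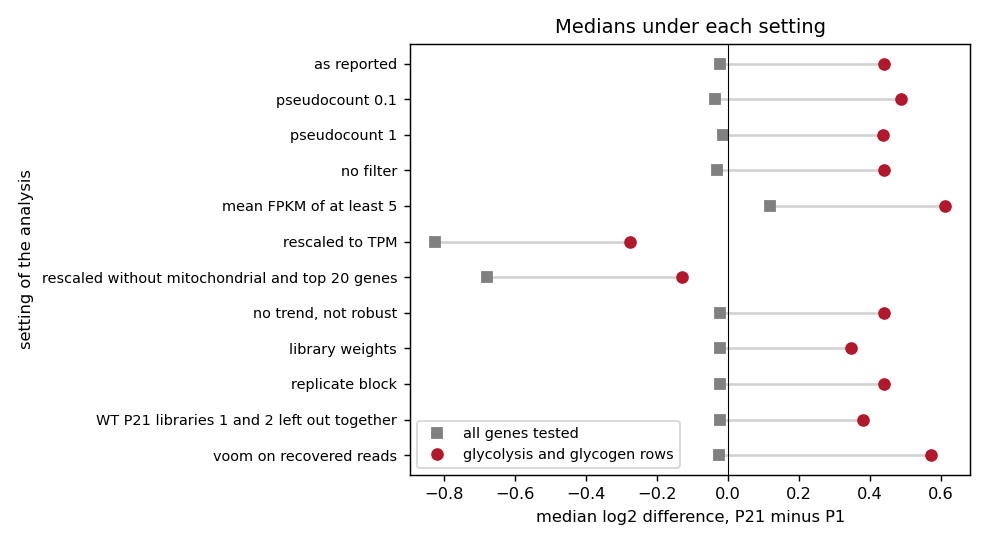
Median log2 difference between P21 and P1, averaged over genotypes, for all genes tested (squares) and for the glycolysis and glycogen rows (circles) under each setting named on the vertical axis. Both medians move down on the 2 rescalings, to -0.82 and -0.28 with TPM, and the circles stay to the right of the squares throughout.

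Of the 4 transporter genes, 2 were higher and 2 lower at P21, where 24.9% of all genes tested were higher and 27.5% lower. Slc2a4 encodes GLUT4, the insulin-responsive glucose transporter of muscle and fat, and lies on chromosome 11 from 69833365 to 69839014 in the table's coordinates. It stood at 31.7, 25.4 and 25.2 FPKM in wild type and 23.8, 29.9 and 30.7 in labelled knockout at P1, and at 104, 115 and 94.8 in wild type and 106, 125 and 100.04 in labelled knockout at P21. Every P21 library was above every P1 library, and the log2 change was 1.94, SE 0.13, adjusted p = 1.1e-06 by limma, the smallest adjusted p of the 35 rows. Slc2a1 encodes GLUT1, the widely expressed transporter. It stood at 6.16, 4.74 and 4.77 FPKM in wild type and 5.4, 6.55 and 4.85 in labelled knockout at P1, and at 4.68, 3.51 and 2.33 in wild type and 2.14, 2.47 and 3.03 in labelled knockout at P21, with all P21 libraries below all P1 libraries, by a narrow margin in wild-type hearts (log2 change -0.78, SE 0.16, adjusted p = 0.00201). Summed adipocyte markers, a cell type that also makes GLUT4, were 22.4 to 33.1 FPKM at P1 and 36.0 to 70.9 at P21, nearly all from Cidea and Lipe. The other 5 markers (Adipoq, Cfd, Lep, Plin1 and Ucp1) summed to 0 to 0.106 FPKM at P1 and 0 to 10.9 at P21. All 5 were listed at 0 in wild-type P21 libraries 1 and 2, where Slc2a4 stood at 104 and 115 FPKM. Cidea and Lipe summed to 62.0 and 70.9 FPKM in those libraries, the highest sums of all 12. The part of adipocytes in the Slc2a4 values was not tested.

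The lactate transporters were further apart at P21 than at P1. Slc16a1, which encodes MCT1, stood at 30.4, 31.5 and 24.5 FPKM in wild type and 30.5, 32.8 and 34.2 in labelled knockout at P1, and at 30.7, 43 and 34.7 in wild type and 43, 56.5 and 39.5 in labelled knockout at P21. Its log2 change was 0.40, SE 0.14, adjusted p = 0.0285 as deposited, and it was called lower after rescaling to TPM, at -0.49. Slc16a3 encodes MCT4, the exporter of glycolytic tissues, and stood at 3.19, 1.86 and 1.69 FPKM in wild type and 1.72, 4.34 and 4.39 in labelled knockout at P1, and at 0.534, 1.87 and 0.831 in wild type and 0.832, 1.72 and 1.36 in labelled knockout at P21. The log2 change of Slc16a3 was -0.97, SE 0.27, adjusted p = 0.0115, at levels near the filter and with overlapping libraries. Within each library, the log2 ratio of Slc16a3 to Slc16a1, which apart from the pseudocount does not depend on the scale, moved from -3.29 ± 0.46 at P1 to -4.66 ± 0.31 at P21 (SD, n = 6 libraries each).

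At the entry to glycolysis, the hexokinase gene with the higher FPKM switched. Hexokinases trap glucose in the cell as glucose phosphate. Hk1, the widely expressed isoform, stood at 35.7, 28.4 and 14.3 FPKM in wild type and 25.1, 32.1 and 15.3 in labelled knockout at P1, and at 9.82, 13.4 and 23 in wild type and 23.9, 16.9 and 23.4 in labelled knockout at P21. Hk2, the isoform of insulin-responsive tissues, stood at 13.9, 13.6 and 10.4 FPKM in wild type and 6.48, 12.8 and 9.49 in labelled knockout at P1, and at 20.7, 19.7 and 30 in wild type and 33.4, 26.9 and 27.8 in labelled knockout at P21. By FPKM, Hk1 was the higher of the pair in all 6 P1 libraries and Hk2 in all 6 P21 libraries. The log2 ratio of Hk2 to Hk1 went from -1.11 ± 0.51 at P1 to 0.56 ± 0.28 at P21. Which gene leads depends on the gene length used for FPKM, 8532 bases for Hk1 and 5969 for Hk2. Reads summed to 21870 for Hk1 and 6775 for Hk2 at P1, and to 10012 and 9779 at P21. Hk2 rose (log2 change 1.23, SE 0.17, adjusted p = 0.000166), and turned to -0.26 and -0.12 in wild type alone on the rescalings. Hk1, with overlapping ages, did not pass (log2 change -0.43, SE 0.27, adjusted p = 0.206).

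Phosphofructokinase commits sugar to glycolysis, and its muscle subunit gene led at both ages. Pfkm stood at 132, 133 and 102 FPKM in wild type and 97.1, 141 and 88.8 in labelled knockout at P1, and at 232, 356 and 271 in wild type and 321, 287 and 279.5 in labelled knockout at P21, without overlap of the ages (log2 change 1.34, SE 0.18, adjusted p = 0.000118). The liver-type Pfkl ranged from 13.3 to 22.5 FPKM at P1 and 19.2 to 27 at P21, and did not pass (log2 change 0.33). Pfkp, the platelet-type subunit, ranged from 6.15 to 13.1 FPKM at P1 and 15.9 to 23 at P21 (log2 change 1.07, SE 0.18, adjusted p = 0.000537). The log2 ratio of Pfkm to Pfkl moved from 2.61 ± 0.35 at P1 to 3.62 ± 0.10 at P21, whereas that of Pfkm to Pfkp overlapped between the ages (3.53 ± 0.22 at P1 to 3.81 ± 0.13 at P21). Part of the Pfkp transcript, 17.1% of its 50-base windows, is shared with 1 other annotated gene, Pitrm1, which overlaps it on the opposite strand, so its reads may be partly split.

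Aldolase showed the widest separation of a pair. Aldoa, the muscle isoform, lies on chromosome 7 from 126394406 to 126399923 and stood at 388, 377 and 361 FPKM in wild type and 423, 415 and 374 in labelled knockout at P1, and at 2199, 2526 and 1172 in wild type and 1193, 1308 and 1073 in labelled knockout at P21. All P21 libraries were above all P1 libraries, with wild-type P21 libraries 1 and 2 highest (log2 change 1.93, SE 0.22, adjusted p = 3.7e-05). Aldoc, the brain-type isoform, stood at 3.06, 3.04 and 2.06 FPKM in wild type and 2.76, 4.25 and 1.34 in labelled knockout at P1, and at 0.593, 0 and 0 in wild type and 0, 0.0369 and 0 in labelled knockout at P21. It was listed at 0 in 4 of 6 P21 libraries and rested on 16 reads at P21 against 912 at P1, so its fitted log2 change (-2.44, SE 0.27, adjusted p = 3.5e-05) depends on the pseudocount. The short Aldoa model of 799 bases, on the same symbol, held 0 to 35 reads per library and fell (log2 change -1.48). The other enzymes of these steps did not pass: Gpi1, which isomerises glucose phosphate, had a log2 change of 0.30 (82.9 to 125 FPKM at P1, 108 to 191 at P21), and the triose phosphate isomerase gene Tpi1 of 0.62. Tpi1 stood at 233, 232 and 249 FPKM in wild type and 292, 308 and 272 in labelled knockout at P1, and at 413, 877 and 276 in wild type and 307, 498 and 280.2 in labelled knockout at P21.

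**Figure D2:**
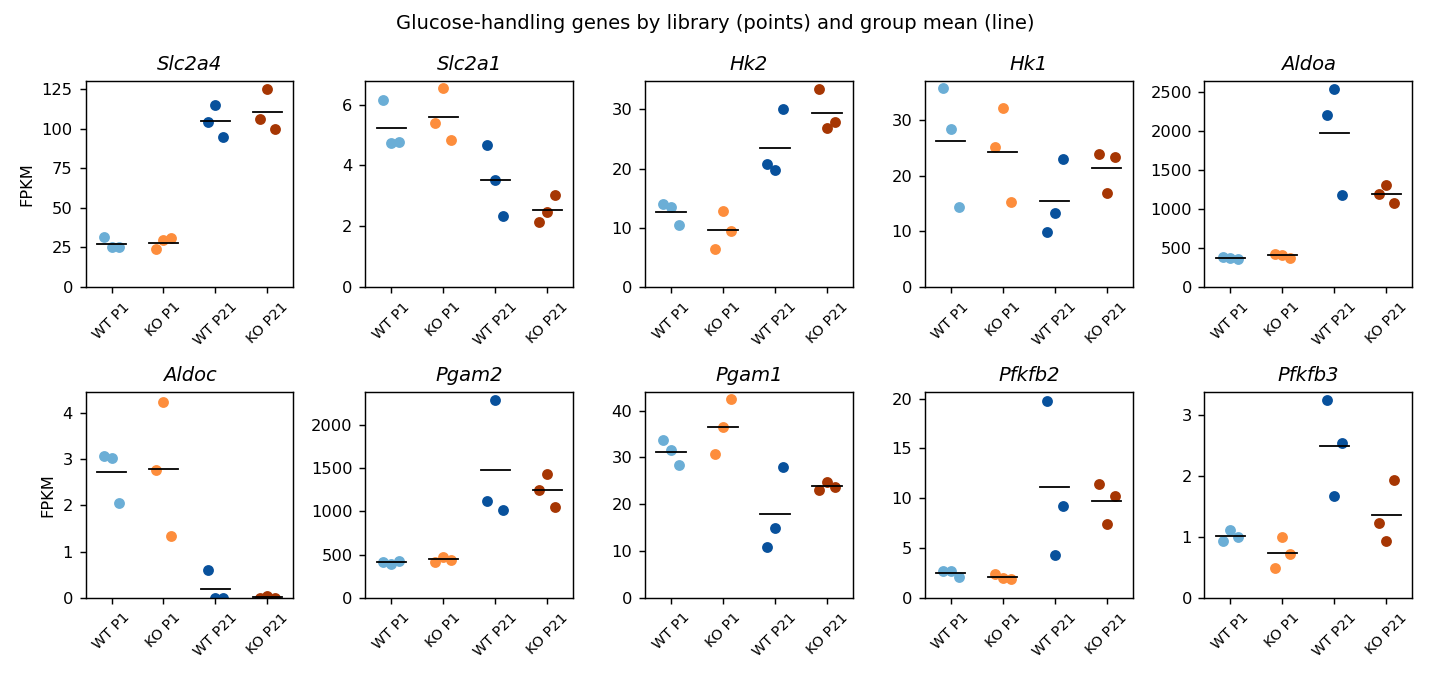
FPKM of 10 genes in each library (points, 3 per group) with the group mean (line), for wild type (blue) and labelled knockout (orange) at P1 and P21. Slc2a4 and Hk2 sit higher in all P21 libraries than in any P1 library, while Aldoc falls to 0 or near it and Pgam1 lies below its P1 range in all P21 libraries.

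In the lower steps, which turn triose phosphate into pyruvate and yield the ATP, 4 of 7 genes were higher at P21 and 1 lower. Of all genes tested, 24.9% were higher and 27.5% lower. Phosphoglycerate mutase had an opposite course for its isoforms. Pgam2, the muscle isoform, lies on chromosome 11 from 5751640 to 5753733 and stood at 415, 385 and 429 FPKM in wild type and 413, 473 and 442 in labelled knockout at P1, and at 1119, 2287 and 1015 in wild type and 1243, 1433 and 1048 in labelled knockout at P21 (log2 change 1.61, SE 0.23, adjusted p = 0.000177). Pgam1, the widely expressed isoform, stood at 33.7, 31.7 and 28.3 FPKM in wild type and 30.7, 36.4 and 42.5 in labelled knockout at P1, and at 10.9, 15 and 27.8 in wild type and 23, 24.7 and 23.7 in labelled knockout at P21 (log2 change -0.74, SE 0.19, adjusted p = 0.00772). No P21 value of Pgam1 reached its lowest P1 value. A processed copy, Pgam1-ps2, shares much of the Pgam1 transcript, of whose 50-base windows 41.5% occur in another annotated gene, so the counting may divide its reads. Pgam2 shares none.

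Pgam2 and Pgam1, which moved in opposite directions, are shown with the 250 bases upstream of the transcription start, together with Hk2 and Ldha, which rose as deposited. For Ldha the window of 1 of 2 annotated starts is shown, chosen for its matches, and the other held 0 matches of any motif. Sequences are from RefSeq (GRCm38.p6), 5′ to 3′ on the gene's strand, and the table's own positions differ from that build, since 0 of 35 rows had the start and end of the GRCm38 annotation. Capitals mark matches on either strand to any of 4 motifs. ACGTG is the core bound by hypoxia-inducible factors. The E-box CACGTG overlaps it, since it contains that core. AAGGTCA is bound by estrogen-related receptors, and the MEF2 consensus by myocyte enhancer factors. The windows are chr11:5803797-5804046 (minus strand), chr19:41911621-41911870 (plus), chr6:82774455-82774704 (minus) and chr7:46845554-46845803 (plus), in the order printed.
Pgam2: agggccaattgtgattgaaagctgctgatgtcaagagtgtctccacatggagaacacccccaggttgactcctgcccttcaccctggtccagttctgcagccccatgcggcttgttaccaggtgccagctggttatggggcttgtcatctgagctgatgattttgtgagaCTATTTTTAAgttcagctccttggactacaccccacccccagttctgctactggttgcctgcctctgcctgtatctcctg
Pgam1: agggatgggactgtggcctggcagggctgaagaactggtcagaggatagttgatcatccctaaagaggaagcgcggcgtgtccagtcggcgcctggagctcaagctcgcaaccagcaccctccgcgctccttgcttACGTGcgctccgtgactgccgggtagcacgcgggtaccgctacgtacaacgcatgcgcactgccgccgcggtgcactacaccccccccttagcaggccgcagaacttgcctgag
Hk2: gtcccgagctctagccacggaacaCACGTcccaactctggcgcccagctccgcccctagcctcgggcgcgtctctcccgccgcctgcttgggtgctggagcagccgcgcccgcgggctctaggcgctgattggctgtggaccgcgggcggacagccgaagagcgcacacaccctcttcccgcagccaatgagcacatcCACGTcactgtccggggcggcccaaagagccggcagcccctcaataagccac
Ldha: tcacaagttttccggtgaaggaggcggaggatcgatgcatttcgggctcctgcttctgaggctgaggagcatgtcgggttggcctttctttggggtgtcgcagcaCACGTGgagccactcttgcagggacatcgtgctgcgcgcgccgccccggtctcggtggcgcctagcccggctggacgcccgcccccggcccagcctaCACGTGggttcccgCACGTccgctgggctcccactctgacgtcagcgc
Pgam2 holds a MEF2 match and no ACGTG, Pgam1 and Hk2 hold ACGTG alone, and Ldha holds 5 matches of ACGTG and 2 of the E-box, each of which counts for ACGTG on both strands. The genes printed do not stand for all that rose. Eno3, Ldhb, Phkg1 and Gapdh also rose, and their windows held 0 matches of any motif. Windows were found for 33 of the 34 symbols, all but Slc2a4. ACGTG occurred in 15 of those 33 (45.5%), against 18.5% of 27025 genes with a window of the same length. Those genes were not matched to the members for base composition or expression, and ACGTG contains a CG pair, so the shares are a description without a test. Members had more windows per gene, and by window the shares were 37.3% of 51 against 16.6% of 32851. The E-box occurred in 5 (15.2%, against 6.86%), the estrogen-related receptor motif in 2, Eno1 and Pfkfb1 (6.06%, against 4.7%), and the MEF2 consensus in 2, Pfkfb1 and Pgam2 (6.06%, against 3.42%). By window these shares were 9.8% against 6.02%, 3.92% against 4.08%, and 3.92% against 2.92%. A match is a run of letters and not a binding site, and the genes with ACGTG include ones that rose, fell or did not pass.

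Of the enolase genes, Eno3 rose and Eno1 did not pass. Eno3, the muscle isoform, stood at 485, 491 and 560.1 FPKM in wild type and 407, 569 and 527 in labelled knockout at P1, and at 1090.5, 2207 and 1098 in wild type and 1325, 1391 and 942 in labelled knockout at P21, again with wild-type P21 library 2 far above the others (log2 change 1.36, SE 0.24, adjusted p = 0.000661). Eno1 ranged from 24.2 to 41.4 FPKM at P1 and 25.5 to 34.8 at P21 and did not pass (log2 change -0.18). Of its 50-base windows 72.2% are shared, nearly all with Eno1b, so its level is uncertain. The log2 ratio of Eno3 to Eno1 moved from 3.97 ± 0.32 at P1 to 5.50 ± 0.30 at P21. Pkm, which encodes muscle-type pyruvate kinase, ranged from 131 to 246 FPKM at P1 and 214 to 489 at P21 (log2 change 0.73, SE 0.24, adjusted p = 0.0247).

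Gapdh and Pgk1 share most of their transcript with other genes. Gapdh, which encodes the dehydrogenase of triose phosphate, stood at 2.01, 0.911 and 1.23 FPKM in wild type and 1.58, 1.5 and 1.19 in labelled knockout at P1, and at 4.65, 5.21 and 6.05 in wild type and 7.23, 4.6 and 1.6 in labelled knockout at P21, on 65 to 351 reads per library. These levels lie far below those of its neighbours in the pathway, Tpi1 (232 to 308 FPKM at P1) and Pgk1, and how well they reflect Gapdh RNA was not tested. Its log2 change was 1.42, SE 0.28, adjusted p = 0.00128, and knockout P21 library 3 lay within the P1 range. Of the Gapdh transcript 82.5% of the 50-base windows occur in other genes, 222 in all, many of them pseudogenes. Pgk1, phosphoglycerate kinase, ranged from 193 to 254 FPKM at P1 and 129.5 to 372 at P21 (log2 change 0.09, not called), with 68% of its windows shared. Over the 34 genes, 12 shared at least 10% of their windows and 13 shared none, among them Slc2a4, Hk2, Aldoc, Pgam2, Eno3 and Pfkm. How the shared sequence entered the counts was not tested.

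Both lactate dehydrogenase genes rose. Ldhb, the heart-type subunit, stood at 474, 486 and 481 FPKM in wild type and 618, 529.6 and 452 in labelled knockout at P1, and at 1258, 1567 and 1014 in wild type and 1151, 1282 and 960.2 in labelled knockout at P21 (log2 change 1.24, SE 0.19, adjusted p = 0.000325). Ldha, the muscle-type subunit, stood at 195, 201 and 216 FPKM in wild type and 195, 248 and 247 in labelled knockout at P1, and at 401, 783 and 335 in wild type and 302, 502 and 279 in labelled knockout at P21 (log2 change 0.91, SE 0.24, adjusted p = 0.00823). All P21 libraries exceeded all P1 libraries for both, the margin of Ldha being small, and Ldhb was above Ldha on this per-length scale in each library. Other annotated genes share 27% of the windows of Ldhb and 16.6% of those of Ldha. Their log2 ratio overlapped between the ages (1.22 ± 0.26 at P1 to 1.55 ± 0.33 at P21).

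The Pfkfb genes encode the bifunctional enzymes that make and remove the allosteric activator of phosphofructokinase. Pfkfb2, the heart isoform, stood at 2.7, 2.68 and 2.12 FPKM in wild type and 2.43, 1.96 and 1.92 in labelled knockout at P1, and at 19.8, 4.34 and 9.22 in wild type and 11.4, 7.45 and 10.3 in labelled knockout at P21. It rose (log2 change 1.84, SE 0.28, adjusted p = 0.000255), with a wide spread in wild type at P21, and 25.1% of its windows are shared with 1 gene model, Gm29427, that overlaps it on the same strand. Pfkfb3, the inducible isoform, stood at 0.936, 1.11 and 0.99 FPKM in wild type and 0.492, 0.991 and 0.717 in labelled knockout at P1, and at 3.24, 1.67 and 2.55 in wild type and 1.23, 0.939 and 1.93 in labelled knockout at P21 (log2 change 0.77, SE 0.19, adjusted p = 0.00568). Pfkfb1, the liver and muscle isoform, stood at 1.008, 0.952 and 0.863 FPKM in wild type and 0.448, 1.28 and 0.732 in labelled knockout at P1, and at 2.83, 1.45 and 1.58 in wild type and 0.53, 0.48 and 1.28 in labelled knockout at P21 and did not pass (log2 change 0.33), nor did Pfkfb4 (log2 change 0.35, 0.586 to 1.23 FPKM at P1 and 0.79 to 1.72 at P21).

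Of the 5 genes of glycogen breakdown, 3 were higher at P21 and 0 lower, and of the 3 genes of glycogen synthesis 0 passed. Of all genes tested, 24.9% were higher and 27.5% lower, and the difference between breakdown and synthesis was not tested. Of the 3 that passed, Phka1 turned negative on both rescalings, and Pygm stayed positive but did not keep its call on both. Only Phkg1, a gene of low values, passed on both. Pygm, muscle glycogen phosphorylase, stood at 179, 159 and 113 FPKM in wild type and 110.2, 173 and 94.6 in labelled knockout at P1, and at 296, 309 and 343 in wild type and 380.4, 286 and 311 in labelled knockout at P21 (log2 change 1.25, SE 0.20, adjusted p = 0.000344). The brain-type isoform Pygb ranged from 65.9 to 123 FPKM at P1 and 104 to 177 at P21 and did not pass (log2 change 0.44), and the log2 ratio of Pygm to Pygb moved from 0.47 ± 0.12 at P1 to 1.28 ± 0.33 at P21. Phkg1, the catalytic subunit of muscle phosphorylase kinase, stood at 1.45, 0.89 and 1.3 FPKM in wild type and 0.753, 0.904 and 0.974 in labelled knockout at P1, and at 1.78, 3.07 and 6.64 in wild type and 7.33, 3.96 and 7.6 in labelled knockout at P21 (log2 change 1.72, SE 0.26, adjusted p = 0.000248). Of the Phkg1 windows 25% are shared, with 137 other genes in all. Sumf2 shares the most, 25% of the windows, and overlaps Phkg1 on the opposite strand, as does Zbed5. Chchd2 and Gm42790 overlap Phkg1 on the same strand. The regulatory subunit gene Phka1 ranged from 4.27 to 7.63 FPKM at P1 and 7.71 to 11.5 at P21 (log2 change 0.61, SE 0.15, adjusted p = 0.00596), and Phkb from 5.06 to 6.99 at P1 and 6.18 to 8.0 at P21 (log2 change 0.20, not called).

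Among the synthesis genes, Ugp2, which makes the glucose donor, stood at 58, 58.1 and 67.9 FPKM in wild type and 66.7, 55 and 84.6 in labelled knockout at P1, and at 59.4, 81.5 and 74.7 in wild type and 85.1, 141 and 84.9 in labelled knockout at P21 (log2 change 0.39). Gbe1, the branching enzyme, stood at 11.8, 10.8 and 7.86 FPKM in wild type and 12.3, 10.2 and 10.2 in labelled knockout at P1, and at 7.77, 7.54 and 9.43 in wild type and 9.48, 13.4 and 9.56 in labelled knockout at P21 (log2 change -0.15). Gys1, muscle glycogen synthase, ranged from 15.2 to 27.5 FPKM at P1 and 12.2 to 18.7 at P21 (log2 change -0.42, SE 0.17, adjusted p = 0.058). Each gene overlapped between the ages.

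**Figure D3:**
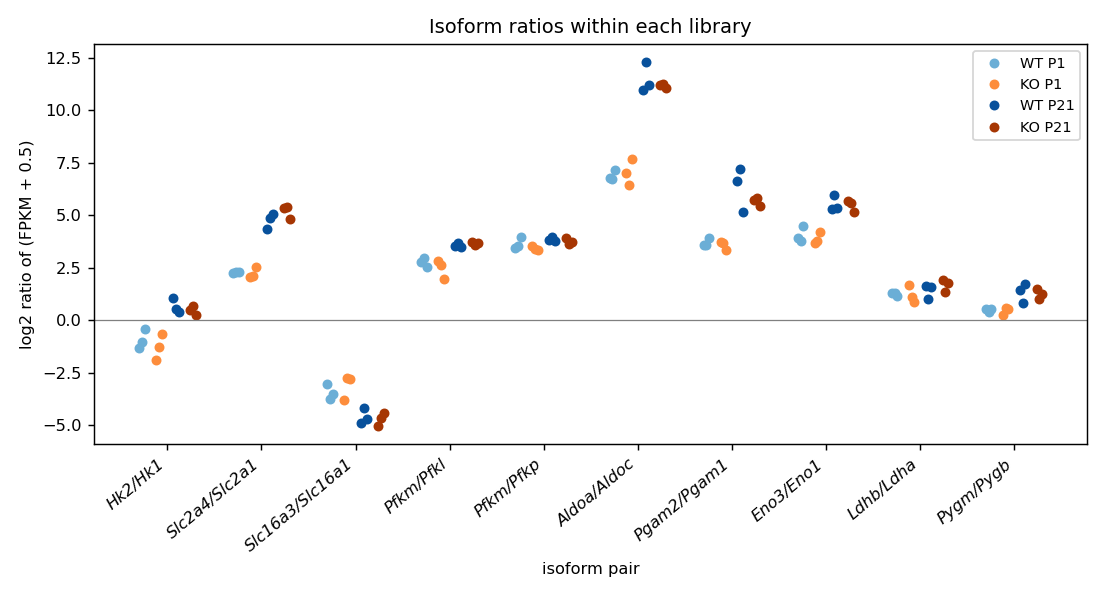
Log2 ratio of the paired isoforms within each library, with a pseudocount of 0.5 FPKM, for wild type and labelled knockout at P1 and P21. The ages do not overlap for 8 of 10 pairs, and Hk2 over Hk1 crosses 0 between P1 (mean -1.11) and P21 (mean 0.56). For single genes, the ages do not overlap for 31.6% of all genes tested. Where a pair lies relative to 0 depends on the gene lengths used for FPKM.

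Ratios within a library do not depend on its scale, and 8 of the 10 isoform pairs did not overlap between the ages. For single genes, the ages did not overlap for 31.6% of all genes tested, and the share over other pairs of genes was not computed. The pairs are not independent, since Pfkm is set against both Pfkl and Pfkp. Each of the 8 moved toward the muscle isoform, apart from the lactate transporters. Their ratio, Slc16a3 over Slc16a1, fell from -3.29 ± 0.46 at P1 to -4.66 ± 0.31 at P21, away from the exporter of glycolytic tissues. The ratio of Slc2a4 to Slc2a1 went from 2.26 ± 0.18 at P1 to 4.97 ± 0.39 at P21, and that of Pgam2 to Pgam1 from 3.64 ± 0.18 at P1 to 6.0 ± 0.77 at P21. For Aldoa over Aldoc the values were 6.97 ± 0.42 at P1 to 11.34 ± 0.49 at P21, the latter set by the pseudocount. These ratios are a description of the same libraries and were given no test.

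Taken by genotype, the age comparison gave fewer calls. Between P1 and P21 in wild type 14 rows were higher at P21 and 3 lower, or 48.6%, where 44.9% of all genes passed (21.5% higher and 23.3% lower). In the libraries labelled knockout 13 were higher and 2 lower, or 42.9%, where 25% passed (11.8% higher and 13.2% lower). These counts depend on the scale. On TPM 3 rows were higher and 16 lower in wild type, and 8 and 6 in labelled knockout. Without mitochondrial and the top 20 genes they were 3 and 15, and 9 and 5. Of the 14 higher calls in wild type, 3 (Aldoa, Pgam2 and Slc2a4) passed on both rescalings, and of the 13 in labelled knockout 8 did. Libraries of the ages did not overlap for 19 higher and 4 lower rows in wild type, against 51.9% of all genes (24.4% and 27.5%). In the libraries labelled knockout these were 19 and 5 rows, against 47.4% (22.6% and 24.8%). Median differences were 0.52 and 0.57, against -0.04 and -0.02 for all genes. On the log2 scale Aldoa changed by 2.31, SE 0.31, adjusted p = 0.000263 in wild type and 1.56, SE 0.31, adjusted p = 0.00428 in labelled knockout. Phkg1 changed by 1.19, SE 0.37, adjusted p = 0.0209 and 2.26, SE 0.37, adjusted p = 0.00138, and Hk2 by 0.85, SE 0.25, adjusted p = 0.0158 and 1.61, SE 0.25, adjusted p = 0.001. The difference of the age effects between genotypes passed for 0 of 35 rows and 0% of all genes, and for 0 rows by voom (limma on recovered reads). By limma 0 rows had an unadjusted p under 0.05, against 6.94% of all genes. The smallest adjusted p of the rows was 0.687.

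**Figure D4:**
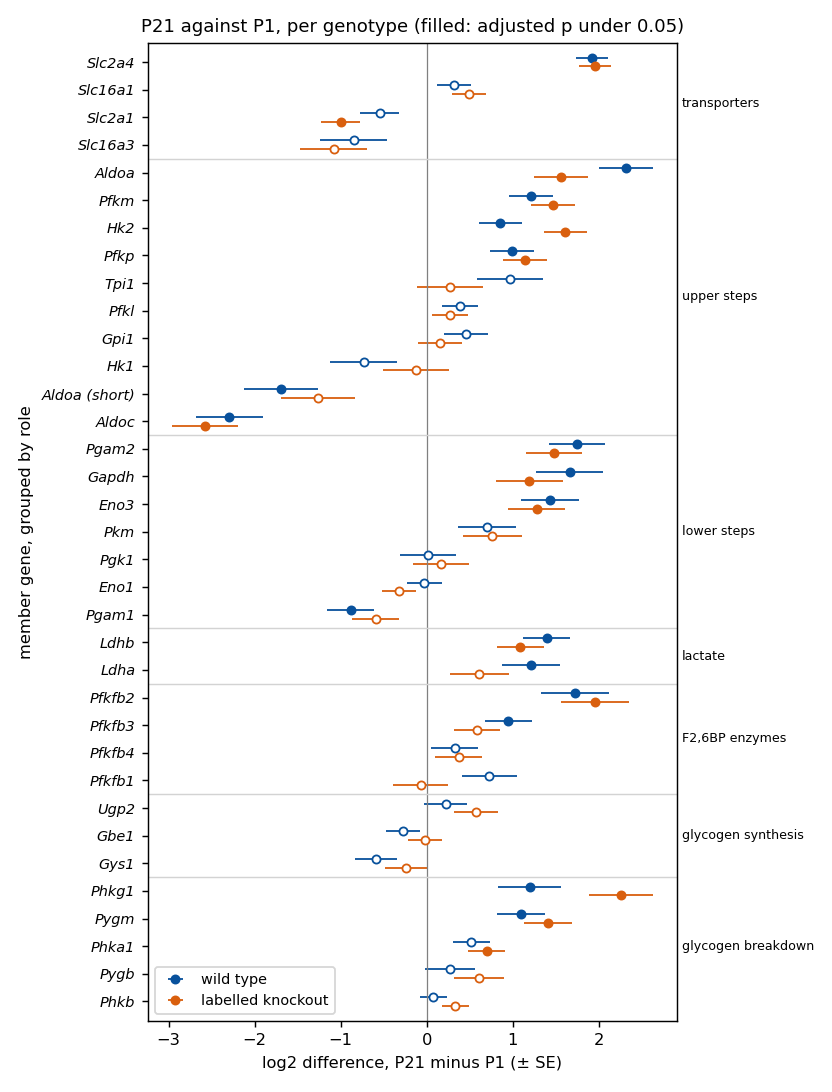
Log2 difference between P21 and P1 with its SE for each row, by role, in wild type and in the libraries labelled knockout. Filled points have an adjusted p under 0.05, and Slc2a4, Aldoa, Pgam2 and Aldoc are filled in both.

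At P1, 0 of 35 rows passed in the comparison of the genotypes, where 0% of all genes passed. No row had an unadjusted p under 0.05, against 0.606% of all genes, voom called 0, and each adjusted p was 1. The median difference was -0.01, as for all genes, and the range was -0.42 for Hk2 to 0.49 for Slc16a3. The genotypes did not overlap for 2 rows, Pgk1 and Tpi1, both higher in the libraries labelled knockout, against 7.96% of all genes (4.52% higher and 3.44% lower). At P1 Tpi1 stood at 233, 232 and 249 FPKM in wild type and 292, 308 and 272 in labelled knockout.

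At P21, 0 rows differed by limma, where 0.0665% of all genes passed. Unadjusted p was under 0.05 for 2 rows, both lower in the libraries labelled knockout, and voom called 0. That was 5.71% of the rows, below the 13.8% of all genes with such a p. Pfkfb1 was at 2.83, 1.45 and 1.58 FPKM in wild type and 0.53, 0.48 and 1.28 in labelled knockout (log2 change -0.97, SE 0.32, adjusted p = 0.259), on 16 to 88 reads per library. Pfkfb3 was at 3.24, 1.67 and 2.55 and 1.23, 0.939 and 1.93 FPKM (log2 change -0.68, SE 0.27, adjusted p = 0.309), with overlap. The genotypes did not overlap for 3 rows, against 12% of all genes (6.9% higher and 5.05% lower): Pfkfb1 was lower, and Ugp2 (log2 change 0.50) and Gbe1 (log2 change 0.36) were higher in the libraries labelled knockout. The median difference was 0.03, against 0.00 for all genes.

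The comparison at P21 turned on the wild-type libraries. Without wild-type P21 library 3, 3 of 35 rows passed by limma. They were Aldoa at a log2 difference of -0.99 (adjusted p = 0.0205), Pgam1 at 0.87 (adjusted p = 0.0184) and Phkg1 at 1.20 (adjusted p = 0.0275). In that fit 1814 of 13537 genes passed, a larger share than among the rows. For Aldoa, Pgam1 and Phkg1, library 3 of wild type lay beside the libraries labelled knockout. Aldoa was at 1172 FPKM there against 1073 to 1308, while libraries 1 and 2 were at 2199 and 2526. Summed endothelial markers (6 of 6 found) were 891, 589 and 354 FPKM in the wild-type P21 libraries and 301 to 374 in labelled knockout. Fabp4 carried that difference, at 692, 448 and 173 FPKM against 145 to 254, and without it the sums were 199, 142 and 181 against 121 to 156. Fibroblast markers (6 of 6) summed to 239, 259 and 305 FPKM in wild type and 362, 438 and 500.5 in labelled knockout, without overlap. Taken singly, Col1a2, Lum and Postn did not overlap, while Col1a1, Dcn and Pdgfra did, and 0 of the 6 passed. Dcn, for example, was at 173, 142 and 130 FPKM in wild type and 125, 182 and 168 in labelled knockout. Proliferation markers (6 of 6) were 0.657 to 2.13 against 2.16 to 2.68 FPKM. The part of these markers in the values at P21 was not tested.

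**Figure D5:**
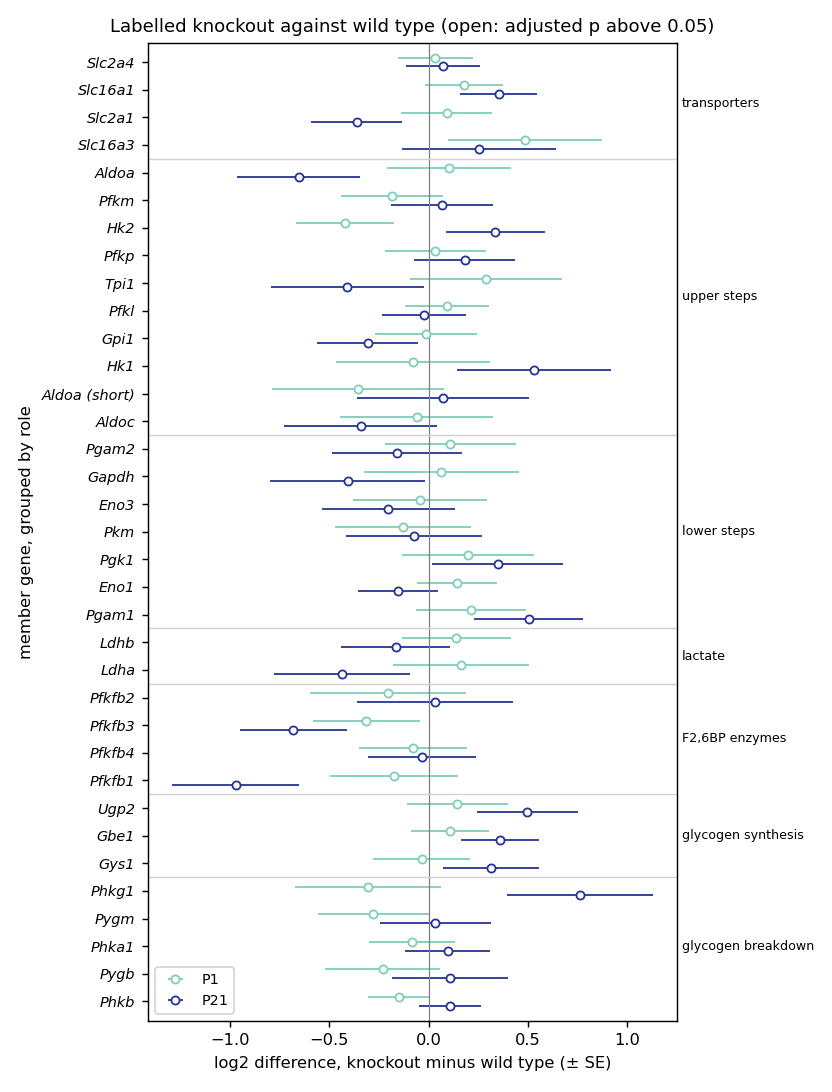
Log2 difference, labelled knockout minus wild type, with its SE for each row, by role, at P1 and at P21. All points are open, since 0 rows had an adjusted p under 0.05 at either age, and the values at P21 range from -0.97 (Pfkfb1) to 0.76 (Phkg1).

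Other genes of the pathway were taken from lists of glycolysis, transport, glycogen and regulatory genes. Of 15 further glycolysis genes, 8 were tested, and 4 were higher and 1 lower at P21. The counts in these lists are to be read against the 52.4% of all genes that passed, 24.9% higher and 27.5% lower. Ldhd, which encodes a mitochondrial D-lactate dehydrogenase, rose (log2 change 2.88, SE 0.12, adjusted p = 4.2e-08). It kept its call on both rescalings. Tigar (log2 change 0.61), a phosphatase of sugar phosphates, and the bisphosphoglycerate mutase gene Bpgm (log2 change 0.84) were higher as deposited but did not pass on either rescaling, at -0.22 and -0.07 for Tigar and -0.03 and 0.13 for Bpgm. The neuronal enolase gene Eno2 fell (log2 change -0.71, SE 0.22, adjusted p = 0.0168). Of 4 transport genes tested of 7 listed, 1 passed: Bsg, which encodes basigin, the partner that carries MCT1 and MCT4 to the membrane, rose (log2 change 1.23, SE 0.22, adjusted p = 0.000754).

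Of 23 further glycogen genes 18 were tested, with 5 higher and 7 lower at P21. Stbd1, which tethers glycogen to membranes, fell (log2 change -3.06, SE 0.20, adjusted p = 8.6e-07), as did Pygl, the liver phosphorylase (log2 change -1.95, SE 0.19, adjusted p = 1.1e-05). Among the subunits that target protein phosphatase to glycogen, Ppp1r3b (log2 change -1.31) and Ppp1r3d (log2 change -0.90) fell and Ppp1r3c rose (log2 change 1.57, SE 0.24, adjusted p = 0.000282). Of 22 regulators, all tested, 6 were higher and 9 lower. Prkag2, a regulatory subunit of AMP-activated kinase, fell (log2 change -2.53, SE 0.18, adjusted p = 1.3e-06), as did Myc (log2 change -2.21), Hif1a (log2 change -0.89) and Mef2a (log2 change -0.80), while Epas1, which encodes another hypoxia-inducible factor, rose (log2 change 1.77, SE 0.22, adjusted p = 6.2e-05). The directions of Stbd1, Pygl, the Ppp1r3 genes, Prkag2, Myc, Hif1a, Mef2a, Epas1, Bsg and Eno2 were the same, and passed, on both rescalings. Since both rescalings lowered the age differences, they were no check on the genes that fell. In these lists 0 genes passed in either comparison of the genotypes.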

How the data were processed

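FPKM values per gene of all 12 libraries were deposited by the authors as 1 table. Per the labels' protocols, RNA came from the miRNeasy micro kit, and the Ovation Ultralow V2 kit gave the libraries. FastQC, TopHat2 2.0.13, Subread, featureCounts and edgeR are named in the submitters' processing notes, with 3 genome builds and no roles. For the table's build and strand setting, the sources used here say nothing, and overlapping genes cannot be told apart. FPKM times gene length gave whole reads (within 0.05) for 100% of nonzero values, and limma voom on those reads called 7094 genes for age averaged over genotypes and 1 for genotype at P21.

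Groups and replicate numbers came from the sample titles. Group means of log2(FPKM + 0.5) over 12 libraries were fitted with limma 3.58.1 in R 4.3.3 (trend, robust), over 13537 genes. Fold changes on this scale understate changes of low genes. The fit was tested on simulated data. Values per library are printed for members past the threshold and for isoform pairs, and of other lists the 5 genes at most with the smallest adjusted p, of which 1 is not reported here. Members and lists were chosen with earlier results of these data known. Alternatives changed the pseudocount, filter, scale, model, libraries or replicate block. Shared windows of 50 bases were counted in GENCODE M21 transcripts. Figures were drawn with matplotlib 3.10.9.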

Additional observations from a re-analysis of the deposited data

How the results depend on the processing

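The age differences as deposited depend on the scale of the libraries. On rescaling to TPM, the median of the rows was -0.44 for age in wild type, -0.062 for age in the libraries labelled knockout, -0.28 averaged, 0.37 for genotype at P21 and 0.53 for their difference between the ages. Rescaled without mitochondrial genes and the top 20, these were -0.30, 0.090, -0.13, 0.41 and 0.58. The medians of all genes tested moved as well. In the same order they were -1.03, -0.62, -0.82, 0.29 and 0.40 on TPM, and -0.90, -0.46, -0.68, 0.33 and 0.44 on the other rescaling. Reversed values were, on TPM and then on the other rescaling, -0.26 and -0.12 for Hk2 in wild type, and averaged -0.18 and -0.014 for Pkm, -0.49 and -0.33 for Slc16a1, and -0.24 and -0.085 for Phka1; with TPM alone Pygm was -0.048 and Pfkp -0.11 in wild type. A mean FPKM of at least 5 gave an averaged median of 0.61 over 26 rows. Library weights gave 24 called rows and a median of 0.40 for age in the libraries labelled knockout. Leaving out each library in turn gave medians of 0.35 to 0.67 (15 to 20 rows called) in wild type, 0.35 to 0.61 (12 to 18) in labelled knockout, -0.05 to 0.09 for genotype at P21 (0 to 3 called), and -0.042 to 0.21 for the difference of the effects; averaged, 20 to 25 were called. The cause was not tested beyond the scale itself. Without wild-type P21 libraries 1 and 2 together, 16 rows were higher and 5 lower averaged. Of single-gene values, 1156 kept direction and call, 92 lost the call and 10 reversed. The fit on the compared groups alone does not apply to the averaged age comparison or the difference of effects, which need all groups.

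Same-numbered libraries shared only a number: correlations of their deviations from group means were -0.30 to 0.49, with 4 of 12 pairs over 0.1. With the replicate block 18 rows were higher and 5 lower averaged, 15 and 3 in wild type, 12 and 2 in labelled knockout, and 0 in each genotype comparison.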
